A study of Mus musculus with 6 samples.

Results

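The proteasome is the barrel-shaped protease that destroys ubiquitin-tagged proteins, and the genes described here encode its core and its cap. They are the 36 protein-coding genes, of 55450 genes in the deposited tables and 21951 protein-coding ones, whose symbols are Psma, Psmb, Psmc or Psmd followed by a number, without the inducible subunits Psmb8, Psmb9 and Psmb10. The 16 Psma and Psmb genes were taken as core and the 20 Psmc and Psmd genes as cap. By role they comprise 8 genes of the alpha ring, 8 of the beta ring, 6 ATPases, 3 scaffold or receptor subunits of the cap's base, 8 subunits of its lid and 3 assembly chaperones that carry Psmd names but leave before the cap is mature.

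The core is a stack of rings, with beta rings inside that hold the cutting sites and alpha rings outside that form the gate. The cap binds ubiquitin chains, removes them, unfolds the substrate with its ring of ATPases and threads it through the gate. Core and cap subunits are built into one complex in fixed proportion, and in many cell types their genes are transcribed together under the factor Nfe2l1 (also called Nrf1) when proteasome activity falls short.

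RNA was sequenced from 6 tumours grown under the skin of the right flank of C57BL/6 mice from MTE-Ras cells, mouse tracheal epithelial cancer cells that carry an oncogenic RAS mutation. The control group was 3 tumours injected with phosphate-buffered saline (PBS), and the other group was 3 tumours injected with PV-10, which is rose bengal, a dye, formulated for injection into lesions. Both groups thus share the cell line, the RAS mutation and an injection, and the labels used here give no dose, no time from injection to collection, no age of the mice and no statement on whether the line is a clone. The title of the series concerns cell death and endoplasmic reticulum stress after PV-10, and PV-10 against PBS is the comparison the design allows.

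Gene counts summed to between 36730318 and 98717951 per tumour. PV-10 tumour 3 correlated with the PBS tumours at 0.909 to 0.930 in log2 CPM (counts scaled to library size) and with PV-10 tumours 1 and 2 at 0.874 and 0.822, so its values are given separately wherever a result turns on it. The transcript Gm42418 took 2.55 to 3.49% of counts in PBS and 8.94 to 11.4% in PV-10 tumours. Of the epithelial markers, Krt8, Krt18 and Krt19 carried the summed level of 7 genes (349 to 424 TPM in PBS, 154 to 298 TPM in PV-10), while Epcam was at most 0.54 TPM and Krt5 at most 0.25 TPM in any tumour, so these defining markers of the labelled cell type were at or near 0. Summed TPM (transcript abundance per length, scaled to one total per library) of 6 leukocyte genes was 148 to 226 in PBS and 55.5 to 120 in PV-10 tumours, of 3 endothelial genes 32.5 to 92.8 and 10.4 to 49.5, of 4 fibroblast genes 243 to 673 and 207 to 336, and of 3 adipocyte genes 4.59 to 6.31 and 5.15 to 7.15, and of 7 mitochondrially encoded genes 25780 to 36340 and 9307 to 24690. Cd68 carried the leukocyte sum, and S100a8 went the other way (0 to 2.52 TPM in PBS, 3.97 to 8.19 TPM in PV-10). Skeletal muscle genes (5 in all) summed to 104 TPM in PV-10 tumour 2 and to at most 18.6 TPM in the others. The part of these shifts in the results on the proteasome was not tested, and in bulk tissue fewer cells of a type and less RNA per cell cannot be told apart.

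Of the 36 genes, 9 were called higher in PV-10 tumours and 0 lower (edgeR quasi-likelihood test on counts, Benjamini-Hochberg adjusted p under 0.05, n = 3 per group). That is 25.0% of the members, where 3.17% of all 22056 genes tested were called higher and 1.92% lower. All 36 passed the expression filter. The called genes were Psma2, Psma3, Psma4, Psma5, Psma6 and Psma7 of the alpha ring, the ATPase Psmc6, the lid deubiquitinase Psmd14 and the chaperone Psmd9. At an unadjusted p under 0.05 there were 18 higher and 0 lower members, against 15.6% and 14.5% of all genes. DESeq2 called 19 members higher and 0 lower where it called 14.9% and 5.92% of all genes. Limma-voom called 9 higher and 0 lower, against 3.79% and 5.35% of all genes. By role the edgeR calls took 6 of 8 alpha ring genes, 0 of 8 beta ring genes, 1 of 6 ATPases, 0 of 3 base scaffold and receptor genes, 1 of 8 lid genes and 1 of 3 chaperones. The beta ring had 4 genes higher at an unadjusted p under 0.05, limma-voom called 0 of them and DESeq2 4, whereas the base scaffold and receptor had 0 by each of these. Whether one role differs from another in its share of calls was not tested.

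The 2 scales in the files place these changes differently. On the count scale used by edgeR the median gene changed by a log2 of 0.30, and on log2(TPM + 1), over 12511 genes with a mean of at least 1 TPM, by -0.79. The core medians cover unlike sets, 16 genes by edgeR and 14 on the TPM scale. Psma8 and Psmb11, with a mean under 1 TPM and edgeR log2 changes of 3.03 and 3.16, are in the first alone. The alpha and beta ring medians below differ likewise by these genes. Core genes had a median log2 change of 1.297 by edgeR and 0.22 by limma on log2(TPM + 1). These lay 0.99 and 1.01 above the median of all genes. That distance depends on which genes are tested: over 39195 genes, with no filter on low counts, the median of all genes was 1.63 by edgeR and 1.86 by DESeq2, and the core median minus that of all genes was -0.41 and -0.42. Cap genes had 0.33 by edgeR and -0.45 on the TPM scale, so their direction reversed between scales, and they lay 0.03 and 0.34 above the median of all genes. The alpha ring was positive on both scales, with medians of 1.57 and 0.64. The beta ring went from 0.75 by edgeR to -0.17 on the TPM scale. On log2(TPM + 1) limma called 1 member higher (Psmd14, background 1.82%) and 2 lower (Psmd2 and Psmd3, background 39.1%). Across the 34 members expressed at a mean of 1 TPM or more, the 2 scales ordered the changes alike (r = 0.99 across genes, which are not independent and come from the same 6 libraries).

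**Figure D1:**
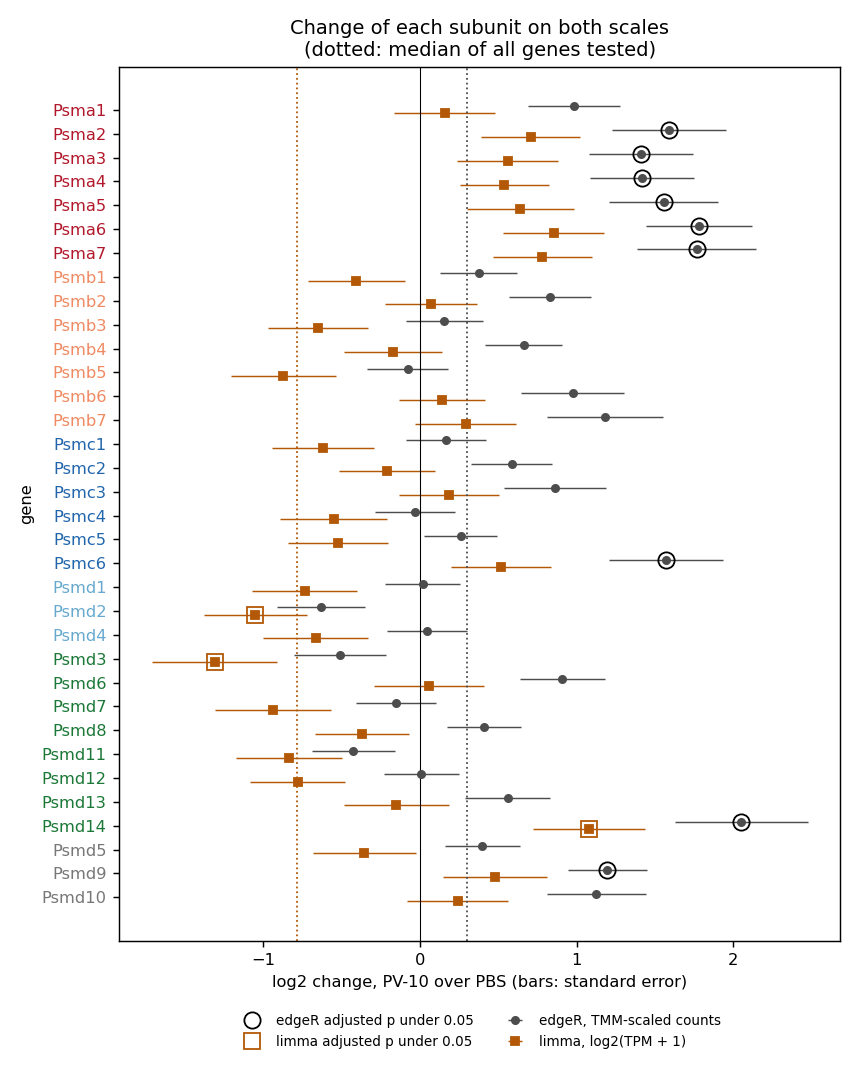
Log2 change from PBS to PV-10 tumours (x axis) of the 34 members with a mean of at least 1 TPM (y axis, coloured by role), by edgeR on counts (circles) and by limma on log2(TPM + 1) (squares), with standard errors as bars. Dotted lines mark the median of all genes, 0.30 and -0.79; Psma2 to Psma7 are positive on both scales, whereas the cap median is 0.33 by edgeR and -0.45 on the TPM scale.

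The alpha ring forms the gate of the core. In 6 of its 7 broadly expressed subunits every PV-10 tumour lay above every PBS tumour in TPM, as in 5.07% of 12511 genes. Psma6 was at 25.9, 36.9 and 34.5 TPM in PBS tumours 1 to 3 and at 71.7, 62.3 and 45.5 TPM in PV-10 tumours 1 to 3, which edgeR put at a log2 change of 1.78 (SE 0.34, adjusted p = 0.0443). Psma7 was at 65.9, 67.8 and 75.1 TPM in PBS and at 155, 135 and 82.3 TPM in PV-10 tumours, which edgeR put at a log2 change of 1.77 (SE 0.38, adjusted p = 0.0443). In both genes every PV-10 tumour lay above every PBS tumour, with tumour 3 the lowest of the PV-10 group. Psma2 was at 36.5, 32.4 and 33.5 TPM in PBS and at 61.8, 68.1 and 42.2 TPM in PV-10 tumours, which edgeR put at a log2 change of 1.59 (SE 0.36, adjusted p = 0.0457). Psma5 was at 13.2, 15.7 and 19.56 TPM against 31.2, 26.8 and 19.59 TPM, so PV-10 tumour 3 was only just above the highest PBS tumour, and edgeR gave a log2 change of 1.56 (SE 0.35, adjusted p = 0.0446). The groups of Psma2 were apart by more than the spread within PBS tumours, and those of Psma5 nearly touched.

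Psma3 and Psma4 rose by less. Psma3 was at 25.7, 32.0 and 28.4 TPM in PBS and at 44.1, 53.2 and 32.9 TPM in PV-10 tumours (log2 change 1.41, SE 0.33, edgeR adjusted p = 0.0470). Psma4 was at 66.9, 64.6 and 77.1 TPM in PBS and at 122, 97.3 and 87.2 TPM in PV-10 tumours (log2 change 1.42, SE 0.33, edgeR adjusted p = 0.0470). Neither gene's groups overlapped. Psma1, the remaining subunit of the common ring, was at 27.4, 40.1 and 45.3 TPM in PBS and at 43.5, 43.6 and 36.8 TPM in PV-10 tumours, and these overlapped. Its log2 change of 0.98 (SE 0.29) missed the threshold at an edgeR adjusted p of 0.0676. DESeq2 called Psma1 higher (adjusted p = 0.00454). So did edgeR with the size factors of DESeq2 (adjusted p = 0.0451) and with a filter at a mean of 50 counts (adjusted p = 0.037). Psma8, which replaces Psma7 in the testis, had 0, 10 and 12 counts in PBS and 20, 35 and 46 counts in PV-10 tumours, which is at most 1.05 TPM, and was not called (edgeR adjusted p = 0.315).

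**Figure D2:**
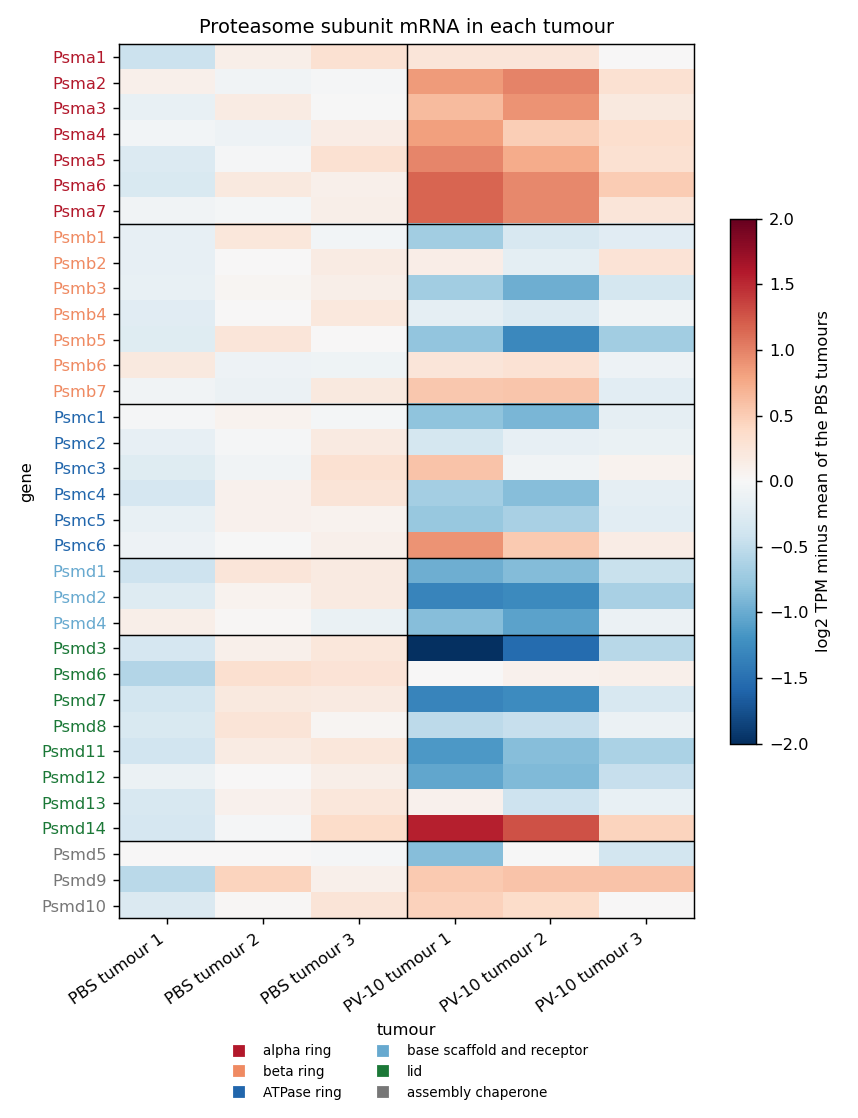
Level of the 34 members with a mean of at least 1 TPM (rows, grouped by role) in each tumour (columns), as log2 TPM minus the mean of the 3 PBS tumours. Psma2 to Psma7, Psmc6, Psmd14, Psmd9, Psmd6 and Psmd10 are above that mean in all 3 PV-10 tumours, the last 2 barely so in at least 1 tumour. Most of the other cap genes are below it, and PV-10 tumour 3 is paler than tumours 1 and 2. In TPM, all PV-10 tumours lay below all PBS tumours in 49.2% of 12511 genes.

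Of the 6 alpha ring genes called, the stretches before the start sites are shown for 4, all of which hold CCAAT. Psma4 and Psma5 are not shown. Beside them stand Psmd14, the member of highest change in the cap, and Psmb5, a core gene that did not rise. They are the 200 bases upstream of the RefSeq start on the strand of the gene (build GRCm38.p6), were picked after the values were seen, and carry CCAAT (or ATTGG, its complement) and TGACNNNGC in capitals. CCAAT is the box bound by NF-Y, and TGACNNNGC is the core of the antioxidant response element bound by Nfe2l1 and Nfe2l2. The stretches lie at chr13:14613042-14613241 (plus strand) for Psma2, chr12:70974423-70974622 (plus) for Psma3, chr12:55384022-55384221 (plus) for Psma6, chr2:180042465-180042664 (minus) for Psma7, chr2:61711494-61711693 (plus) for Psmd14 and chr14:54617996-54618195 (minus) for Psmb5.
Psma2: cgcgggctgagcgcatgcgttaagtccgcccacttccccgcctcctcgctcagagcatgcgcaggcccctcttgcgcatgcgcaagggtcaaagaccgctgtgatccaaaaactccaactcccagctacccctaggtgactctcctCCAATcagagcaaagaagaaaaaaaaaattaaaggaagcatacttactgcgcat
Psma3: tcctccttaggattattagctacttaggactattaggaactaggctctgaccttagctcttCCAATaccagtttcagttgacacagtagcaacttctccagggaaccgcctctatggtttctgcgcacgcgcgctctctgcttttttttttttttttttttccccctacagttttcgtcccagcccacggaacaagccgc
Psma6: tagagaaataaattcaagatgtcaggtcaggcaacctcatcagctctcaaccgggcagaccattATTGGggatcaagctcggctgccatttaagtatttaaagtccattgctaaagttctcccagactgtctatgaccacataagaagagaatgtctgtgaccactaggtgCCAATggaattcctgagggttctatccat
Psma7: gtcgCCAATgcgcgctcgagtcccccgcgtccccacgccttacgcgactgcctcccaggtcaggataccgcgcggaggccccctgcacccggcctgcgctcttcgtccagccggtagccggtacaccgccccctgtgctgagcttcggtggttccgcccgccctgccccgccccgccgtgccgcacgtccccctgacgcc
Psmd14: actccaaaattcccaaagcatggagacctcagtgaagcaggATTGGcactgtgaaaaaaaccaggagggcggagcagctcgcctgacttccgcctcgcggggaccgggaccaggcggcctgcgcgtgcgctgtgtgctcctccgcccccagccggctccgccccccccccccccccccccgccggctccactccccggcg
Psmb5: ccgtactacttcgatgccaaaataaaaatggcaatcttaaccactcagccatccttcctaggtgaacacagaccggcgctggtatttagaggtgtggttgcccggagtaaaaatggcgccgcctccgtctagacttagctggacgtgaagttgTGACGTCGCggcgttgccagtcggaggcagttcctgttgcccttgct

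The CCAAT box lay 54 bases before the start in Psma2, 139 in Psma3, 136 and 29 in Psma6, 196 in Psma7 and 159 in Psmd14, counted to its first base on the gene's strand, and the Psmb5 stretch held TGACNNNGC at 47 bases. RefSeq promoters matched 29 of the 36 members (31 entries), and in the 250 bases before the start, on both strands, CCAAT occurred in 5 of 8 Psma entries, in 38.7% of member entries and in 33.8% of all 32851 entries. TGACNNNGC occurred in 0 of 8 Psma entries, in 16.1% of member entries and in 10.2% of all entries. Among members called by edgeR, CCAAT was found in Psma2, Psma3, Psma6, Psma7 and Psmd14, and not in Psma4, Psma5, Psmc6 or Psmd9. It was also found in Psma1, Psmb3, Psmb11, Psmc1, Psmc2, Psmd4 and Psmd10, which edgeR did not call. TGACNNNGC was found in the called Psmc6 and Psmd9 and in the uncalled Psmb5, Psmb6 and Psmd12. The other motifs searched were TGAGTCA (3.23% of member entries, 4.46% of all), TGACTCAGC (0%, 0.39%), its form with a leading A (0%, 0.0731%), CCAATNNG (16.1%, 12.7%), CCGGAAGT (16.1%, 2.88%) and, by name, a YY1 motif (0%, 0.207%), an NRF-1 motif (3.23%, 0.782%) and a GC box (9.68%, 6.31%). These motifs overlap one another in part, since CCAATNNG holds CCAAT, and TGACTCAGC holds TGACNNNGC and, on the other strand, TGAGTCA. CCGGAAGT was found in entries of Psmc1, Psmc2, Psmd6 and Psmd12, none of them called by edgeR. DESeq2 called Psmc2 and Psmd6 higher (adjusted p = 0.0306 and 0.00626). The 2 motifs in capitals were picked after all these shares had been seen, and a match describes letters in the window and nothing more.

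The beta ring holds the cutting sites and had no gene called by edgeR. Psmb5, the chymotrypsin-like site that proteasome inhibitors target, was at 19.2, 26.7 and 22.7 TPM in PBS and at 13.2, 9.26 and 13.95 TPM in PV-10 tumours. All PV-10 tumours lay below all PBS tumours in TPM, as in 49.2% of 12511 genes. Its log2 change was -0.08 by edgeR (SE 0.26, adjusted p = 0.857) and -0.87 by limma on log2(TPM + 1) (adjusted p = 0.0572), so neither scale called it. Psmb6, the caspase-like site and the most abundant member in each PBS tumour, was at 125, 102 and 104 TPM in PBS and at 129, 134 and 103 TPM in PV-10 tumours (edgeR log2 change 0.98, SE 0.33, adjusted p = 0.0843). Psmb7, the trypsin-like site, was at 52.2, 50.5 and 62.7 TPM in PBS and at 80.0, 81.0 and 47.2 TPM in PV-10 tumours (edgeR log2 change 1.18, SE 0.37, adjusted p = 0.0733). The groups of Psmb6 and Psmb7 overlapped in TPM through PV-10 tumour 3. DESeq2, which called 14.9% of all genes higher, called both higher (adjusted p = 0.0124 and 0.0071). EdgeR also called Psmb7 higher with no filter on low counts (adjusted p = 0.0186) and with a filter at a mean of 50 counts (adjusted p = 0.0465).

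The structural beta subunits were not called by edgeR either. Psmb1 was at 42.9 to 56.1 TPM in PBS and 29.6 to 41.3 TPM in PV-10 tumours, and Psmb3 at 33.2 to 39.8 and 18.8 to 28.8 TPM. Each was lower in PV-10 in TPM without overlap, as were 49.2% of 12511 genes. On counts their edgeR log2 changes were positive, 0.38 and 0.16 (adjusted p = 0.331 and 0.690). Psmb2 and Psmb4 overlapped in TPM and had edgeR log2 changes of 0.83 and 0.66 (adjusted p = 0.0737 and 0.109), while DESeq2 called both higher (adjusted p = 0.00398 and 0.0157). Psmb11, the thymus-specific catalytic subunit, had 30, 21 and 0 counts in PBS and 50, 152 and 0 counts in PV-10 tumours, at most 0.46 TPM (edgeR adjusted p = 0.336).

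Within each tumour the alpha and beta rings could be set against each other in TPM. That scale divides by length, yet changes on it still fell with length across genes (below). The mean log2 TPM of the 7 common alpha genes was 5.02, 5.23 and 5.33 in PBS and 6.03, 5.95 and 5.46 in PV-10 tumours, without overlap. The same mean over the 7 common beta genes was 5.41, 5.57 and 5.61 in PBS and 5.32, 5.22 and 5.33 in PV-10 tumours. These groups did not overlap either but went in the other direction, in which 49.2% of 12511 genes lay apart. On log2(TPM + 1) the beta median of -0.17 lay 0.61 above the median of all genes. Alpha minus beta was therefore -0.39, -0.34 and -0.28 in PBS and 0.71, 0.74 and 0.13 in PV-10 tumours. The sign differed between the groups in all 6 tumours, and PV-10 tumour 3 lay between the PBS tumours and the other PV-10 tumours. In summed TPM the alpha ring took 42.5, 44.2 and 45.2% of core mRNA in PBS and 59.0, 57.4 and 50.7% in PV-10 tumours. The difference between the rings in their median edgeR log2 change was 0.83, with Psma8 and Psmb11 included. This measure was added after the data had been seen, and no test over the members was made.

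**Figure D3:**
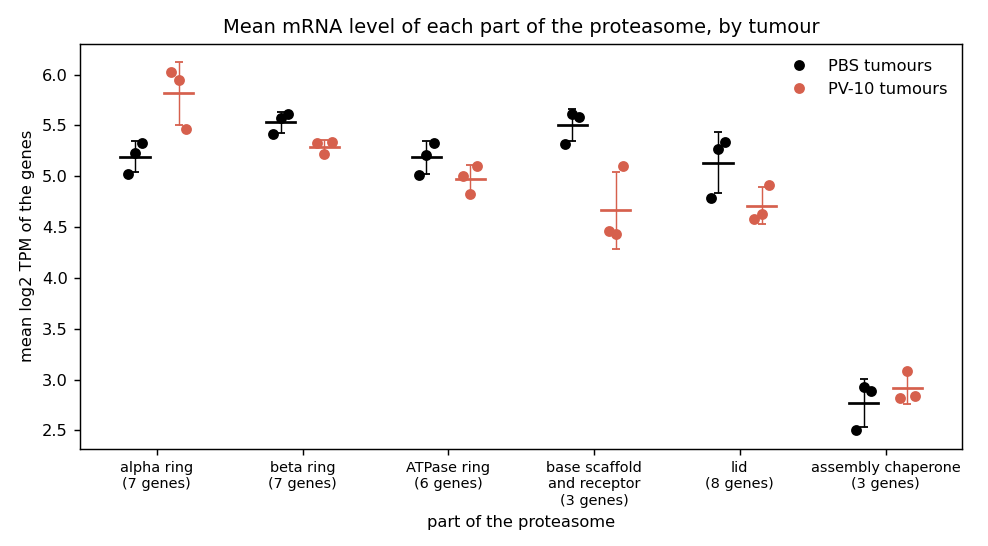
Mean log2 TPM of the genes of each role (y axis) in the 3 PBS and 3 PV-10 tumours (points), with the mean and SD over tumours as bars. Alpha ring means run from 5.02 to 5.33 in PBS and from 5.46 to 6.03 in PV-10 tumours. The beta ring and the base scaffold and receptor are lower in all PV-10 tumours in TPM, as were 49.2% of 12511 genes. On the count scale the beta ring's median change is positive (0.75).

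The cap's ATPase ring unfolds substrates, and 1 of its 6 genes was called higher by edgeR. Psmc6 was at 30.3, 32.3 and 34.9 TPM in PBS and at 60.8, 46.7 and 36.1 TPM in PV-10 tumours, which edgeR put at a log2 change of 1.57 (SE 0.36, adjusted p = 0.0464). Its groups did not overlap, though PV-10 tumour 3 was near the highest PBS tumour. Psmc2 was at 30.7, 33.9 and 39.1 TPM in PBS and at 27.1, 30.6 and 31.4 TPM in PV-10 tumours (edgeR log2 change 0.59, SE 0.26, adjusted p = 0.163). Psmc4 was at 23.7, 31.7 and 35.6 TPM in PBS and at 18.7, 16.6 and 26.3 TPM in PV-10 tumours (edgeR log2 change -0.03, SE 0.26, adjusted p = 0.945). Both overlapped between groups. Psmc1, Psmc3 and Psmc5 had edgeR log2 changes of 0.17, 0.86 and 0.26, with adjusted p = 0.688, 0.111 and 0.475. DESeq2 called Psmc2, Psmc3 and Psmc6 higher (adjusted p = 0.0306, 0.0201 and 0.000244). Proteins of this ring are present in equal number in the complex, whereas the mRNA of Psmc6 had the highest change among them on both scales, and the lowest was that of Psmc4 by edgeR and of Psmc1 (-0.62) on log2(TPM + 1).

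The scaffolds and the ubiquitin receptor of the base had the lowest median change of the 6 roles, 0.02 by edgeR and -0.74 on the TPM scale, with a reversed sign between them. Psmd2, the scaffold that docks shuttle proteins, was at 42.2, 52.9 and 57.1 TPM in PBS and at 20.2, 20.7 and 32.0 TPM in PV-10 tumours. It was lower by limma on log2(TPM + 1), with a log2 change of -1.05 (adjusted p = 0.0296), and not called by edgeR (log2 change -0.63, SE 0.28, adjusted p = 0.168). Its PV-10 tumours were all below its PBS tumours on both scales. Psmd1, the other scaffold, was at 26.5, 41.6 and 39.8 TPM in PBS and at 18.0, 19.4 and 25.8 TPM in PV-10 tumours (edgeR log2 change 0.02, SE 0.24, adjusted p = 0.968). Psmd4, a receptor for ubiquitin chains, was at 57.3, 53.5 and 48.2 TPM in PBS and at 29.4, 25.0 and 48.6 TPM in PV-10 tumours (edgeR log2 change 0.05, SE 0.26, adjusted p = 0.919). Psmd1 did not overlap in TPM, and Psmd4 did through PV-10 tumour 3. Lower TPM in PV-10 tumours was the common case, since the groups lay apart in that direction in 49.2% of the 12511 genes and in the opposite direction in 5.07%.

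In the lid, which strips ubiquitin from substrates, 1 of 8 genes was called by edgeR. Psmd14 is the metalloprotease that cuts ubiquitin chains off the substrate, and its gene lies on chromosome 2 (61711694 to 61800376, plus strand, mm10). It was at 39.4, 48.6 and 63.9 TPM in PBS and at 146, 121 and 67.4 TPM in PV-10 tumours, a log2 change of 2.05 by edgeR (SE 0.42, adjusted p = 0.0443) and of 1.08 by limma on log2(TPM + 1) (adjusted p = 0.0361). All PV-10 tumours were above all PBS tumours, tumour 3 narrowly so, and Psmd14 was the one member called higher on both scales. Psmd3, a structural lid subunit, was at 34.7, 46.8 and 51.2 TPM in PBS and at 10.9, 15.1 and 29.6 TPM in PV-10 tumours. Its log2 change was -1.31 by limma on log2(TPM + 1) (adjusted p = 0.0275) and -0.51 by edgeR (SE 0.29, adjusted p = 0.274), so the fall was called on the TPM scale alone. Relative to the mean log2 TPM of all other members, Psmd14 was at 0.46, 0.48 and 0.83 in PBS and at 2.32, 2.07 and 1.13 in PV-10 tumours.

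The other lid genes were not called by edgeR on counts or by limma on log2(TPM + 1). Psmd11 was at 19.3, 28.0 and 29.4 TPM in PBS and at 11.3, 13.9 and 16.3 TPM in PV-10 tumours (edgeR log2 change -0.43, SE 0.26, adjusted p = 0.309). Psmd12 was at 53.5, 58.7 and 63.0 TPM in PBS and at 28.5, 31.4 and 42.2 TPM in PV-10 tumours (edgeR log2 change 0.01, SE 0.24, adjusted p = 0.982). In both genes the PV-10 tumours lay below the PBS tumours in TPM, as in 49.2% of 12511 genes. Psmd6, Psmd7, Psmd8 and Psmd13 overlapped in TPM, with edgeR log2 changes of 0.91, -0.15, 0.41 and 0.56 and adjusted p = 0.0662, 0.713, 0.279 and 0.196. DESeq2 called Psmd6 and Psmd8 higher (adjusted p = 0.00626 and 0.0360).

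The 3 assembly chaperones escort the ATPases into the base and were the least abundant of the 34 expressed members. Psmd9 was at 3.83, 7.55 and 5.95 TPM in PBS and at 8.02, 8.30 and 8.26 TPM in PV-10 tumours, which edgeR put at a log2 change of 1.20 (SE 0.25, adjusted p = 0.0443). Its groups did not overlap, and PV-10 tumour 3 was at the level of the other PV-10 tumours. Psmd10 was at 5.57, 6.88 and 8.12 TPM in PBS and at 9.30, 8.74 and 6.78 TPM in PV-10 tumours (edgeR log2 change 1.13, SE 0.32, adjusted p = 0.0606). Psmd5 was at 8.52, 8.49 and 8.31 TPM in PBS and at 4.67, 8.42 and 6.52 TPM in PV-10 tumours (edgeR log2 change 0.40, SE 0.24, adjusted p = 0.295). Psmd10 and Psmd5 overlapped in TPM and were not called by edgeR. DESeq2 called Psmd10 higher (adjusted p = 0.00936), as did edgeR with a filter at a mean of 50 counts (adjusted p = 0.0362).

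Taking core against cap as wholes, the core was higher relative to the cap in every PV-10 tumour. Mean log2 TPM of the core minus that of the cap was 0.63, 0.45 and 0.46 in PBS and 1.25, 1.16 and 0.71 in PV-10 tumours, so the groups did not overlap. The core took 50.4, 46.6 and 47.0% of the summed TPM of all members in PBS and 59.5, 60.4 and 52.2% in PV-10 tumours. For the beta ring alone, the difference from the cap was 0.82, 0.62 and 0.60 in PBS and 0.90, 0.79 and 0.64 in PV-10 tumours, which overlapped. By edgeR the median log2 change of core genes, Psma8 and Psmb11 included, exceeded that of cap genes by 0.97. With a filter at a mean of 50 counts, which Psma8 and Psmb11 do not pass, the difference was 0.785. In TPM, 9 of the 34 expressed members lay above PBS in all PV-10 tumours, 10 below and 15 overlapped, against 5.07% above and 49.2% below among the 12511 genes. The most abundant member was Psmb6 in the PBS tumours and in PV-10 tumour 3, and Psma7 in PV-10 tumours 1 and 2, at 155 and 135 TPM.

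The calls changed when a trend with transcript length was removed and when single tumours were left out. The change of a gene fell with its effective length (counts over TPM, relative to the median gene) across 16912 genes, with r = -0.35 by edgeR, and across 34 members with r = -0.27, as descriptions across genes of the same libraries. On log2(TPM + 1) it fell as well, with r = -0.49 across 12511 genes and -0.24 across the 34 members. The differences in TPM between rings and between core and cap are thus not free of this trend. In log2 CPM per doubling of length the slope was 0.145, 0.197 and 0.169 in PBS and -0.253, -0.227 and -0.0312 in PV-10 tumours. The median relative effective length was 0.447 for core and 0.696 for cap genes, 0.463 for the alpha ring and 0.358 for the beta ring. The part of length in the differences between these groups was not tested apart from the trend removal. With each library's length trend removed, 0 of the 16912 genes were called by edgeR, 0 members among them. At an unadjusted p under 0.05 there were 14 of the 35 members fitted and 27.2% of all genes (12.0% higher, 15.2% lower). Of these members Psmb3, Psmb5 and Psmd2 were lower (log2 changes -0.61, -0.78 and -0.76) and the others higher. The medians were then 0.58 for core, 0.10 for cap, 0.99 for the alpha ring and 0.07 for the beta ring, with Psmd14 at 1.62 (adjusted p = 0.0906) and Psma6 at 1.11 (adjusted p = 0.0906). Psma2 has the longest effective length of the alpha genes, 1.36 times the median gene, and its change was 1.795 there against 1.59 before. With trends of length and GC content both removed, 0 members and 2 of 22056 genes (0.00907%) were called by edgeR. The medians were then 0.21 for core, -0.35 for cap, 0.49 for the alpha ring and -0.02 for the beta ring. Psma1 to Psma7 were at -0.08, 0.37, 0.28, 0.35, 0.62, 0.75 and 1.37, in that order. Psmc6 was at 0.15 and Psmd14 at 0.85.

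**Figure D4:**
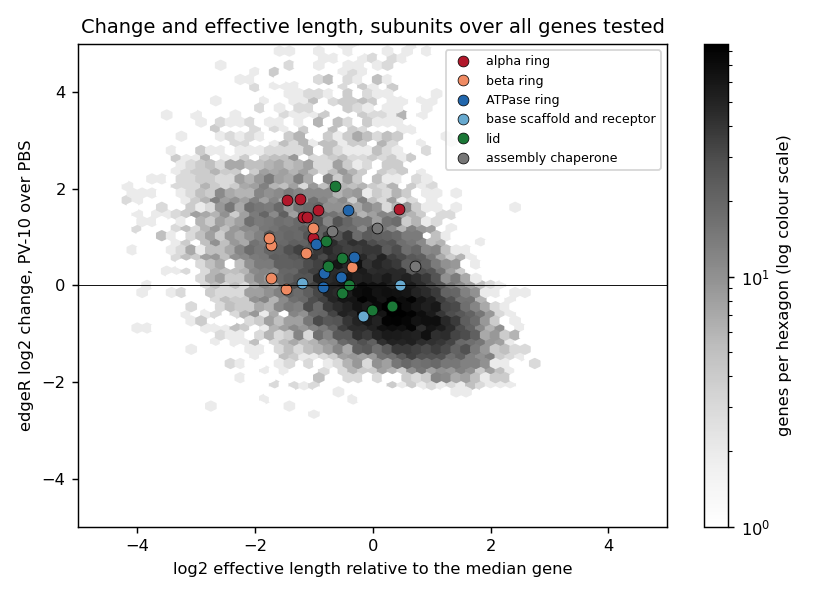
EdgeR log2 change from PBS to PV-10 tumours (y axis) against log2 effective length relative to the median gene (x axis) for the 34 expressed members (coloured by role) over hexagons of all 16912 genes with an effective length (grey, log colour scale). A further 402 genes lie beyond the axes; the 6 called alpha ring genes lie above all 7 beta ring genes shown, and the cloud of all genes slopes down (r = -0.35).

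Leaving out PBS tumour 1, 2 or 3 or PV-10 tumour 1 or 2 left 0 members called by edgeR, and 13 to 15 at an unadjusted p under 0.05 (19.4 to 24.4% of all genes), with 1, 2, 1, 2 and 5 genes called in all. The sizes of the changes moved less: in these 5 fits Psma6 was at 1.52 to 1.79, Psmd14 at 1.68 to 2.16 and the core median at 1.06 to 1.305 on the log2 scale. Without PV-10 tumour 3 there were 19 members higher and 3 lower (Psmd2, Psmd3 and Psmd11), against 25.0% and 16.4% of all 27510 genes. Without it the log2 changes of Psmd14, Psma7 and Psma6 were 2.41, 2.09 and 2.07, and that of Psmb5 was -0.01. The alpha ring then had 7 genes called and the beta ring 4.

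Some values rest on how reads were shared. Psma2 overlaps AW209491 on the same strand (mean 671 counts against 14675 for Psma2), and Psmb7 and Psmc3 overlap Nek6 and Slc39a13 on the opposite strand (4983 against 7395 and 4822 against 6783 counts). The libraries keep strand, but the strand setting of the counting is not given in the sources used here, so these pairs are uncertain. The 4 pseudogene rows named after members held at most 14 counts in any tumour.

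Around the proteasome, 42 genes were taken from a list of partners by role. Of these, 4 were called higher and 0 lower by edgeR (7 and 12 at an unadjusted p under 0.05; limma-voom called 6 and 3, DESeq2 9 and 10). Over all genes tested edgeR called 3.17% higher and 1.92% lower, limma-voom 3.79% and 5.35%, and DESeq2 14.9% and 5.92%. The called genes were Psme2, a subunit of an activator that can take the place of the cap (log2 change 1.22, adjusted p = 0.0470), Pomp (1.44, adjusted p = 0.0470) and Psmg4 (1.86, adjusted p = 0.0443), which help assemble the core, and Rps27a, which encodes ubiquitin fused to a ribosomal protein (1.85, adjusted p = 0.0443). Pomp was at 55.0, 62.0 and 61.6 TPM in PBS and at 78.2, 116 and 67.1 TPM in PV-10 tumours, without overlap. Psmg4 was at 8.38, 9.33 and 8.42 TPM in PBS and at 14.8, 23.6 and 11.3 TPM in PV-10 tumours, also without overlap. Rps27a was at 106, 125 and 107 TPM against 225, 259 and 181 TPM, and was the 1 gene of the list called higher on the TPM scale, where 24 were called lower (1.82% and 39.1% of all genes). Psme2 overlapped, at 33.3, 20.0 and 40.8 TPM in PBS and 48.9, 27.3 and 50.8 TPM in PV-10 tumours.

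The interferon-inducible catalytic subunits, which replace the constitutive ones in immunoproteasomes, were not called by edgeR. Psmb9 was at 3.81, 3.63 and 4.27 TPM in PBS and at 6.36, 5.12 and 7.81 TPM in PV-10 tumours, without overlap (edgeR log2 change 1.18, SE 0.30, adjusted p = 0.0526). It lay at the threshold, and DESeq2 (adjusted p = 0.00735) and limma-voom (adjusted p = 0.0467) called it higher. Psmb8 and Psmb10 overlapped, with edgeR log2 changes of 0.45 and 0.14 (adjusted p = 0.471 and 0.780). Of the activators, Psme1, Psme3 and Psme4 had edgeR log2 changes of 0.61, -0.72 and -0.72 (adjusted p = 0.183, 0.195 and 0.143). Nfe2l1, the factor that drives proteasome genes when activity falls short, was at 28.3, 74.2 and 41.5 TPM in PBS and at 4.57, 12.6 and 22.2 TPM in PV-10 tumours. Its edgeR log2 change was -1.48 (SE 0.42, adjusted p = 0.0604), just short of the threshold. DESeq2 (adjusted p = 0.00250) and limma-voom (adjusted p = 0.0360) called it lower on counts, and limma on log2(TPM + 1) did so as well (-1.91, adjusted p = 0.0210). With the effective length trend removed its log2 change was -1.29 (edgeR adjusted p = 0.0985). The 9 genes of the list that act beside the cap are the deubiquitinases Usp14 and Uchl5, shuttle proteins, the ubiquitin ligase Ube3c and the adaptor Ecpas, and all had negative edgeR log2 changes, from -1.45 for Ubqln2 to -0.36 for Usp14. None of the 9 was called by edgeR (3 lower at an unadjusted p under 0.05), 1 was lower by limma-voom and 2 by DESeq2, and all 9 were lower on the TPM scale, where 39.1% of all genes were. Their median effective length was 1.46 times that of the median gene, against 0.378 for the 5 assembly factors, and the part of length in either group's values was not tested apart from the trend removal, after which their medians were -0.69 and 0.51.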

How the data were processed

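Total RNA (100 ng per tumour) went into strand-specific NuGEN Universal libraries sequenced as 100-base pairs, per the labels' protocols. Per the labels' protocols adapters were found with BBMerge 37.02 and removed with cutadapt 1.8.1, and reads were aligned to mm10 with STAR 2.7.7a and counted with RSEM 1.3.0 on Gencode vM21. The authors deposited whole-number gene counts, not normalized, and a table of TPM, which is scaled to transcript length and to one total per library. Similar genes share reads under RSEM.

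Counts were tested with edgeR 4.0.16 (R 4.3.3, robust quasi-likelihood, default expression filter, TMM scaling, Benjamini-Hochberg over 22056 genes, call at adjusted p under 0.05). TPM values were tested with limma 3.58.1 on log2(TPM + 1), a scale that understates the change of low genes. SE is the size of a log2 change divided by the root of its F statistic. Effective length is counts over TPM, in tumours with at least 0.5 TPM, relative to the median gene. The spread between tumours set the error. The biological coefficient of variation was 0.777 as a common value over all 22056 genes tested, not for the members alone. A level of 3 counts equals 0.0304 to 0.0817 CPM. Whether spread or depth limits precision more was not tested. Alternatives were DESeq2 1.42.0, limma-voom, other scalings and filters, length and GC trend removal (splines with 5 degrees of freedom), a replicate block and each tumour left out.

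The members, roles, partner list and tests were chosen with earlier results of these data known. The named genes were called members, catalytic, ATPase, scaffold, lid and chaperone subunits set by role, the highest and lowest of each role, and called partners with a few set ones; Ubqln2, Usp14, Psmb1 to Psmb4, Psmc1, Psmc3, Psmc5, Psmd6 to Psmd8 and Psmd13 were added so that every member is accounted for or after values were seen. Positions are from Gencode vM21. Proteins were not analysed here, nor was Paaf1.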

Additional observations from a re-analysis of the deposited data

How the results depend on the processing

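Against 9 members higher by edgeR, DESeq2 gave 19, a filter at a mean of 50 counts 15, log2(TPM + 1) and log2(TPM + 0.1) 1 each, effective length removal 0, length and GC removal 0, and leaving out each tumour 0 to 19. The 50-count filter kept 34 members and called 1593 of all 15787 genes higher and 1112 lower. In the main fit 699 of 22056 genes were called higher and 423 lower. Members lower went from 0 to 2 on both TPM pseudocounts and to between 0 and 3 with each tumour left out. The median of core genes moved from 1.297 to 0.225 and 0.229 (pseudocounts 1 and 0.1), 0.58 (effective length) and 0.205 (length and GC). The median of cap genes moved from 0.33 to 0.492 (50 counts) and 0.099 (effective length) and reversed to -0.445 and -0.473 (pseudocounts) and -0.354 (length and GC). Core minus cap was 0.67, 0.702, 0.481 and 0.559 under the pseudocounts, effective length and length with GC, and 0.752 to 1.295 with a tumour left out. Alpha minus beta was 0.509 with length and GC removed and 0.695 to 1.027 with a tumour left out. The cause of these shifts was not tested.

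Single genes reversed while uncalled. With log2(TPM + 1) and log2(TPM + 0.1) the log2 changes were -0.208 and -0.214 for Psmc2, -0.735 and -0.760 for Psmd1, -0.664 and -0.680 for Psmd4, -0.779 and -0.795 for Psmd12, -0.355 and -0.404 for Psmd5, -0.372 and -0.416 for Psmb8 and -0.354 and -0.370 for Psmb10. With length and GC removed they were -0.286 (Psmc2), -0.670 (Psmd1), -0.514 (Psmd4), -0.777 (Psmd12), -0.035 (Psmd10), -0.079 (Psma1), -0.059 (Psmb8) and -0.212 (Psmb10), and with effective length removed -0.542 (Psmd4), -0.266 (Psmd12), -0.088 (Psmb8), -0.554 (Psmb10) and -0.160 (Psme1). Under DESeq2, its size factors and the 50-count filter Psmb5 was at 0.035, 0.042 and 0.094 and Psmc4 at 0.068, 0.075 and 0.125. Under library size alone and no filter Psmd1 was at -0.077 and -0.074, Psmd4 at -0.051 and -0.029 and Psmd12 at -0.086 and -0.074. With each tumour left out, values ran from -0.276 to 0.026 for Psmb5, -0.147 to 0.081 for Psmc4, -0.060 to 0.069 for Psmd1, -0.053 to 0.150 for Psmd4, -0.092 to 0.033 for Psmd12 and -0.139 to 0.337 for Psmb10.

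The replicate numbers name no shared animal or batch, and same-numbered tumours deviated together with r = -0.049, 0.071 and 0.072, so they were not taken as pairs. With the replicate number as a block edgeR called the same 9 members higher and 0 lower, with 1054 of all genes higher and 1818 lower, and not every tumour correlated best with its own number.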
